A study of Caenorhabditis elegans with 14 samples.

Results

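The DNA repair genes outside replication and meiosis described here are the protein-coding Caenorhabditis elegans genes annotated with the term DNA repair but not with DNA replication or meiotic cell cycle. They numbered 104 of the 132 genes with the repair term, in a table of 46217 gene IDs. The rule read the annotation and no measured value. Besides repair enzymes it took in 16 histone H2A genes, 6 genes of the DOT1 family of histone H3 methyltransferases, 10 helicase-like genes known by sequence names, and genes with other main roles such as the ribosomal protein gene rps-3. The annotation is therefore broader than a repair pathway, and the groups were kept apart.

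DNA repair is carried by several separate routes. Base excision repair removes single damaged bases, nucleotide excision repair cuts out a stretch that holds a bulky lesion, and mismatch repair corrects errors left by copying. Breaks through both strands are rejoined directly by end joining or copied from an intact duplex by homologous recombination, and checkpoint kinases hold the cell cycle while this goes on. In an adult C. elegans hermaphrodite nearly all dividing cells lie in the germline, and repair factors are loaded into oocytes for the embryo.

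RNA came from gravid worms on day 1 of adulthood, grown at 20 °C on E. coli OP50, with about 12000 worms per genotype and replicate. The 4 groups were pycr-1(wrm22) polysomal RNA and pycr-1(wrm22) total RNA with 4 libraries each, and wild-type (Bristol N2) polysomal RNA and wild-type total RNA with 3 libraries each. Polysomal RNA came from the sucrose gradient fractions in which an mRNA carried 3 or more ribosomes, and total RNA from the whole lysate, both with cycloheximide, which holds ribosomes in place. The labels give no other allele or agent, no outcrossing of the strain, and nothing on whether replicates were separate cultures. The p-values may therefore measure technical spread alone. The series compares the strains at the levels of RNA abundance and of loading onto polysomes.

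The deposited table held 1 pooled FPKM per gene and group, where FPKM counts fragments scaled to transcript length and to all mapped fragments. The table gave no value per library and the depth was unknown, so each level below is the authors' pooled value with no SD. A difference was called where the authors' deposited table had an adjusted p under 0.05. Errors after ± are standard errors of a log2 ratio of FPKM. They were worked out from the deposited test statistics, taking the variance of a group over its count of libraries. The labels' gene pycr-1, which encodes a pyrroline-5-carboxylate reductase of proline synthesis, had 20.3 FPKM in pycr-1(wrm22) total RNA, against 4.91 FPKM in wild-type total RNA. In polysomal RNA it had 40.8 FPKM in pycr-1(wrm22), against 12.59 FPKM in wild type. It was thus higher in the libraries labelled pycr-1(wrm22), by 2.05 ± 0.20 and 1.70 ± 0.18 on the log2 scale (the authors' deposited table gives an adjusted p of 0.000207 for both). Every strain difference below goes by those labels.

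Most of the repair genes were measured at moderate levels. In pycr-1(wrm22) total RNA 77 of the 104 genes reached 5 FPKM, with a median of 19.8 FPKM over all 104, and in wild-type total RNA 80 did, with a median of 29.9 FPKM. The 14615 coding entries tested in total RNA had medians of 9.42 FPKM in pycr-1(wrm22) and 8.32 FPKM in wild type. The gene with the highest level was rps-3, at 2337 FPKM in pycr-1(wrm22) total RNA and 2710 FPKM in wild-type total RNA. It encodes a protein of the small ribosomal subunit whose Drosophila and human counterparts have also been linked to cutting of damaged DNA. Next came the H2A gene his-61, at 1172 FPKM in pycr-1(wrm22) and 1922 FPKM in wild type. At the other end 6 genes were listed at 0 in all 4 groups, and 15 were not tested between the strains in total RNA, with a mean over the groups of at most 0.196 FPKM. Those untested genes included 9 of the 10 helicase-like genes and 3 of the H2A genes.

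The shares of repair genes per chromosome were set beside those of coding genes, as a description with no test. Chromosome I held 25.8% of the 89 members tested in total RNA, against 16.4% of the tested coding entries, and chromosome III held 22.5%, against 15.4%. The X chromosome held 5.62%, against 14.1%. Levels differed by chromosome too. The members on III had a median of 43.2 FPKM in wild-type total RNA with none below 16.6 FPKM. The 9 members on X, of which 5 were tested in total RNA, had a median of 0.394 FPKM. C44C10.4 alone of them reached 5 FPKM, at 6.82 FPKM in wild-type total RNA. Apart from C44C10.4 and C23H4.6, the members on X were genes of the DOT1 family and the helicase-like genes C11G6.2 and F52G3.3. The share and levels on X are therefore mostly not those of repair enzymes. All tested coding entries likewise differed, with medians of 21.8 FPKM on III and 4.07 FPKM on X in wild-type total RNA. The medians of members took in untested genes as well, whereas these did not.

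**Figure D1:**
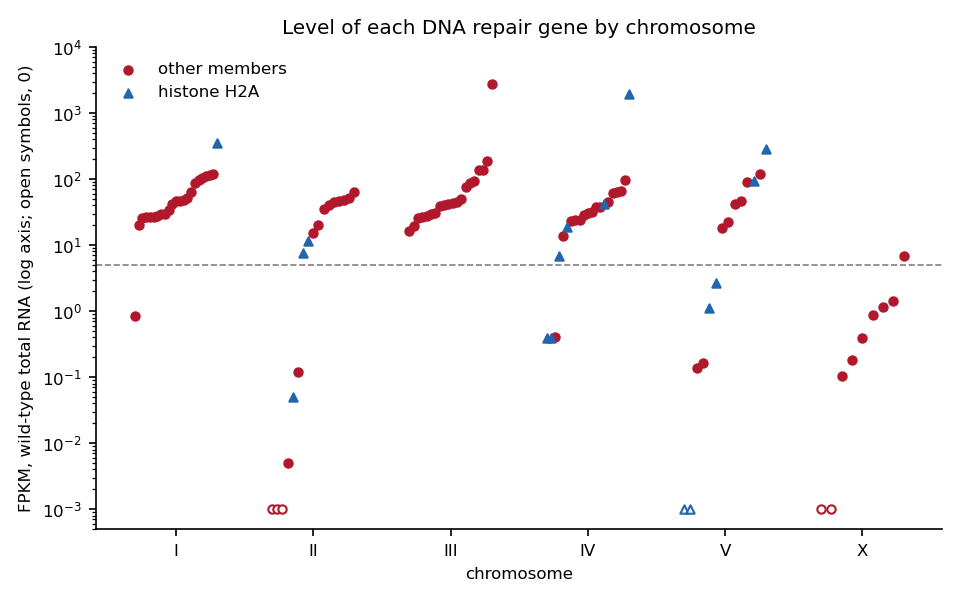
FPKM of each of the 104 DNA repair genes in wild-type total RNA on a log axis, by chromosome; points are genes, triangles are histone H2A genes, open symbols are genes at 0 FPKM and the dashed line is 5 FPKM. On chromosome X 1 of 9 genes lies above the line, at 6.82 FPKM, and on chromosome III all 20 do.

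The first comparison asked how the strains differ in total RNA. The repair genes were lower in pycr-1(wrm22). Of 89 members tested, 69 were called lower and 1 higher, with a median log2 ratio of -0.60, which covers base excision, nucleotide excision, mismatch, crosslink and end-joining genes alike. Over all 15557 entries tested, 27.9% were called lower and 18.6% higher, with a median of -0.04. Members are better expressed than most genes, and better expressed genes were lower more often in pycr-1(wrm22). At 5 FPKM or more in both strains 65 of 77 members were called lower with a median of -0.60, against 43.8% of all 8484 entries with a median of -0.35. Taken relative to that median of -0.35, the members' median was -0.25, and a Wald test centred there called 17 of 87 members lower and 1 higher, against 7.57% lower and 33.6% higher of all 14882 entries. The 17 were his-3, his-7, his-21, his-61, his-68, dot-1.4, C44C10.4, snfc-5, hpr-17, dvc-1, trr-1, tdpt-1, parp-2, lem-3, brd-1, H21P03.2 and hsr-9. Among entries at 5 FPKM or more the centred test called 14 of 77 members lower, against 9.42% of 8414. Centred calls given by class below are those in total RNA, and those in polysomal RNA follow later.

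In RNA of whole worms, fewer cells of a type and less RNA per cell cannot be told apart. Germline and oocyte markers were lower as well. Of 16 listed markers 15 were called lower and none higher in total RNA, and their summed level was 3129 FPKM in pycr-1(wrm22) and 5539 FPKM in wild type. The first on that list, the germline helicase gene glh-1, had 164 FPKM in pycr-1(wrm22) and 187 FPKM in wild type and was the marker that did not pass. Of 8 sperm markers 6 were called higher, with summed levels of 816 FPKM in pycr-1(wrm22) and 606 FPKM in wild type. Intestine markers summed to 8064 FPKM in pycr-1(wrm22) and 8489 FPKM in wild type, with 3 of 8 called higher. Body muscle markers summed to 1752 and neuron markers to 129 FPKM in pycr-1(wrm22), against 1553 and 141 FPKM in wild type, each with 1 of 6 called higher. Of 6 epidermis markers 4 were called higher and 1 lower, with a median log2 ratio of 1.72. Their sums were 124 FPKM in pycr-1(wrm22) and 130 FPKM in wild type, of which the entry of lin-26, the marker called lower, held 76.4 and 118 FPKM. None of these markers was at 0 in every group, and their part in the fall of the repair genes was not tested.

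**Figure D2:**
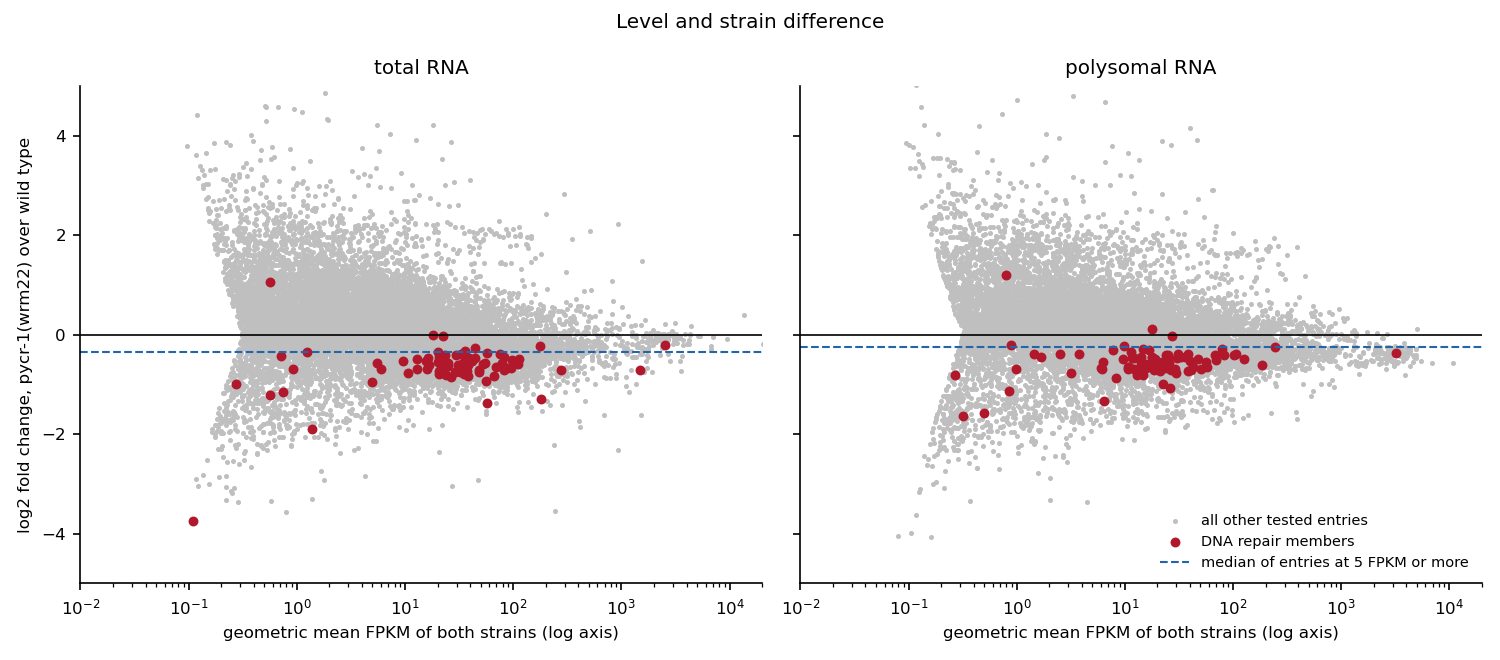
Log2 ratio of pycr-1(wrm22) over wild type against the geometric mean FPKM of both strains (log axis), in total RNA and in polysomal RNA; red points are DNA repair members, grey points all other tested entries, and the dashed line is the median of entries at 5 FPKM or more in both strains. Most red points lie below that line, which stands at -0.35 in total and -0.26 in polysomal RNA; points beyond the axes are not drawn.

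In base excision repair 5 of 6 entries were called lower in total RNA, against 43.8% of all entries at 5 FPKM or more in both strains. Of the 5 the centred test called parp-2 alone in total RNA. The AP endonuclease gene exo-3, whose product cuts the backbone beside a missing base, had 69.5 FPKM in pycr-1(wrm22) total RNA, against 111 FPKM in wild-type total RNA (-0.67 ± 0.15). The second AP endonuclease gene, apn-1, had 31.02 FPKM in pycr-1(wrm22), against 47.2 FPKM in wild type (-0.60 ± 0.16). Both endonuclease genes were called lower. The DNA glycosylase gene nth-1 had 10.3 FPKM in pycr-1(wrm22), against 16.6 FPKM in wild type (-0.69 ± 0.21). The poly(ADP-ribose) polymerase genes, whose products mark single-strand breaks, were also called lower. Of these parp-2 had 37.0 FPKM in pycr-1(wrm22), against 62.7 FPKM in wild type (-0.76 ± 0.15), and parp-1 had 30.8 FPKM, against 42.5 FPKM (-0.46 ± 0.22, with an adjusted p of 0.0493 by the authors' deposited table). The uracil glycosylase gene ung-1 shares its entry with the gene Y56A3A.30 and was not called, with 18.6 FPKM in pycr-1(wrm22), against 26.0 FPKM in wild type.

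In nucleotide excision repair 5 of 7 members were called lower, against 43.8% of all entries at 5 FPKM or more in both strains. None of the 7 was called by the centred test in total RNA. The endonuclease gene xpg-1, whose product makes the cut on the 3′ side of a lesion, had 18.6 FPKM in pycr-1(wrm22) total RNA, against 29.2 FPKM in wild-type total RNA (-0.65 ± 0.16). The entry shared by ercc-1, which encodes the partner of the nuclease for the 5′ side, and nubp-1 had 81.4 FPKM in pycr-1(wrm22), against 115.3 FPKM in wild type (-0.50 ± 0.21). Both entries for the cutting enzymes were thus called lower. The damage-binding gene ddb-1 had 45.1 FPKM in pycr-1(wrm22), against 67.0 FPKM in wild type (-0.57 ± 0.15). Genes for subunits of the transcription and repair factor TFIIH were split. T16H12.4 (gtf-2H2C) and Y73F8A.24 (gtf-2H4) were called lower, by -0.60 ± 0.16 and -0.45 ± 0.16. R02D3.3 (gtf-2H1, -0.38 ± 0.19) and mnat-1 (-0.27 ± 0.15), whose product assembles the kinase part of TFIIH, were not.

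Both mismatch repair members were called lower in total RNA, but neither by the centred test in that fraction. The mismatch recognition gene msh-6 had 55.2 FPKM in pycr-1(wrm22) total RNA, against 87.2 FPKM in wild-type total RNA (-0.66 ± 0.15). The exonuclease gene exo-1 lies in an entry with cope-1 and myo-6, at 66.4 FPKM in pycr-1(wrm22), against 86.8 FPKM in wild type (-0.39 ± 0.16). That entry cannot be assigned to exo-1 alone. Direct reversal, in which a protein undoes the lesion itself, had 3 of 4 genes called lower together with end cleaning. The share of all entries at 5 FPKM or more in both strains was 43.8%. Of these the centred test called tdpt-1 alone. The alkyltransferase gene agt-1 had 20.0 FPKM in pycr-1(wrm22), against 30.8 FPKM in wild type (-0.63 ± 0.18). The gene tdpt-1, for a phosphodiesterase that frees topoisomerase from DNA ends, had 17.2 FPKM in pycr-1(wrm22), against 29.5 FPKM in wild type (-0.77 ± 0.17). The gene F52C12.1 (tdpo-1), in an entry with ulp-3, was lower by -0.59 ± 0.18, and Y51H7C.5 (alkb-1, -0.32 ± 0.16) was not called.

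The mRNAs of lesion bypass and crosslink repair genes were lower too, with 1 gene apart. The bypass polymerase gene polh-1 had 27.9 FPKM in pycr-1(wrm22) total RNA, against 45.4 FPKM in wild-type total RNA (-0.70 ± 0.16). The gene rev-1, for a second bypass polymerase, had 13.5 FPKM in pycr-1(wrm22), against 20.4 FPKM in wild type (-0.60 ± 0.19). In contrast ubc-1, the ubiquitin-conjugating enzyme related to yeast Rad6, had 22.4 FPKM in pycr-1(wrm22) and 22.8 FPKM in wild type (-0.02 ± 0.16, with an adjusted p of 0.919 by the authors' deposited table). All 5 crosslink genes were called lower, against 43.8% of all entries at 5 FPKM or more in both strains. Of the bypass and crosslink genes the centred test called dvc-1 alone. The protease gene dvc-1, whose product digests proteins bound to DNA, had 50.3 FPKM in pycr-1(wrm22), against 89.1 FPKM in wild type (-0.82 ± 0.15). The nuclease gene fan-1 had 17.9 FPKM in pycr-1(wrm22), against 31.3 FPKM in wild type (-0.80 ± 0.22). The Fanconi anaemia pair fcd-2 and fnci-1, which encode partners of a clamp on DNA, were lower by -0.55 ± 0.16 and -0.62 ± 0.15. F35H10.5, annotated to the FANCM-MHF complex, was lower by -0.75 ± 0.21.

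Genes for break repair showed a narrow range of falls. The Ku genes cku-70 and cku-80, whose products cap broken ends, had 20.5 and 25.3 FPKM in pycr-1(wrm22) total RNA, against 30.3 and 38.5 FPKM in wild-type total RNA (-0.56 ± 0.17 and -0.60 ± 0.17). The entry of the ligase gene lig-4 and C07H6.2 had 60.8 FPKM in pycr-1(wrm22), against 93.8 FPKM in wild type (-0.63 ± 0.24). All 5 end-joining entries were called lower, against 43.8% of all entries at 5 FPKM or more in both strains. They included K07C5.3 (-0.58 ± 0.16) and the entry of Y73B6BL.14 with Y73B6BL.288 (-0.76 ± 0.31), both annotated to the ligase IV complex. None of the 5 was called by the centred test in total RNA. In homologous recombination the strand-exchange gene rad-51 had 30.5 FPKM in pycr-1(wrm22), against 44.7 FPKM in wild type (-0.55 ± 0.16). The genes brc-1 and brd-1, the worm counterparts of BRCA1 and BARD1, had 18.7 and 16.1 FPKM in pycr-1(wrm22), against 29.2 and 26.5 FPKM in wild type (-0.65 ± 0.16 and -0.72 ± 0.16). These 3 were called lower, of which the centred test called brd-1 alone in total RNA. F42A6.5, annotated to the BRCA1-BARD1 complex, was at most 0.407 FPKM and was not tested.

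Nucleases that cut branched DNA and the SMC-5/6 complex had 5 of 7 entries called lower, against 27.9% of all entries tested. Of the 5 the centred test called lem-3 and H21P03.2 alone. The gene mus-81 had 27.7 FPKM in pycr-1(wrm22) total RNA, against 46.3 FPKM in wild-type total RNA (-0.74 ± 0.25). The nuclease gene lem-3 had 29.4 FPKM in pycr-1(wrm22), against 48.5 FPKM in wild type (-0.72 ± 0.15). The entries of gen-1 with bcas-2 and of slx-1 with npp-6 hold a neighbour each. The first was called lower (-0.50 ± 0.16) and the second was not (-0.66 ± 0.33). Of the SMC-5/6 genes H21P03.2 (nse-4, -0.72 ± 0.16) and T27A3.7 (nse-1, -0.53 ± 0.16) were called lower. C23H4.6 on the X chromosome, at 1.11 FPKM in pycr-1(wrm22) and 1.41 FPKM in wild type, was not.

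Cohesin holds sister chromatids together and so keeps the template for repair at hand. Its ring genes him-1 (SMC1) and smc-3 had 64.0 and 28.1 FPKM in pycr-1(wrm22) total RNA, against 95.3 and 44.03 FPKM in wild-type total RNA (-0.58 ± 0.16 and -0.65 ± 0.15). Both were called lower, as was evl-14 (PDS5, -0.63 ± 0.15), whose product binds the ring. C44C10.4 (smcl-1) was grouped with these genes but is not a gene of the cohesin ring. It had 3.54 FPKM in pycr-1(wrm22), against 6.82 FPKM in wild type (-0.94 ± 0.20). Of this class the centred test called C44C10.4 alone in total RNA. The helicase gene chl-1 was not called in total RNA (-0.80 ± 0.37).

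Of 7 genes for damage signalling 6 were called lower, against 43.8% of all entries at 5 FPKM or more in both strains. Of the 6 the centred test called hpr-17 and hsr-9 alone. The apical kinase genes atm-1 and atl-1, for worm ATM and ATR, had 12.5 and 33.2 FPKM in pycr-1(wrm22) total RNA, against 20.3 and 45.97 FPKM in wild-type total RNA (-0.70 ± 0.15 and -0.47 ± 0.15). The sliding clamp that marks damage was represented by hus-1 and hpr-9, lower by -0.69 ± 0.17 and -0.47 ± 0.19, and its loader by hpr-17. The last had 19.7 FPKM in pycr-1(wrm22), against 35.5 FPKM in wild type (-0.85 ± 0.16). The gene hsr-9, for a counterpart of 53BP1, had 64.2 FPKM in pycr-1(wrm22), against 105 FPKM in wild type (-0.70 ± 0.15). The checkpoint kinase gene chk-2, which also acts in meiotic pairing, was not called, with 17.95 FPKM in pycr-1(wrm22) and 22.7 FPKM in wild type (-0.34 ± 0.16).

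All 8 members for chromatin and ubiquitin were called lower, against 43.8% of all entries at 5 FPKM or more in both strains. Of the 8 the centred test called snfc-5 and trr-1 alone. The SWI/SNF subunit gene snfc-5 (chromosome III, 4404786 to 4406285, WBcel235) had 40.7 FPKM in pycr-1(wrm22) total RNA, against 77.1 FPKM in wild-type total RNA (-0.92 ± 0.15). The gene trr-1, for a scaffold of histone acetyltransferase complexes, had 29.0 FPKM in pycr-1(wrm22), against 51.3 FPKM in wild type (-0.82 ± 0.15). The other falls were smaller. The AAA+ ATPase genes ruvb-1 and ruvb-2 differed by -0.52 ± 0.15 and -0.45 ± 0.15, ekl-4 (DMAP1) by -0.79 ± 0.30 and M03C11.8 (smrd-1) by -0.52 ± 0.15. The ATRX gene xnp-1 and the SUMO ligase gene gei-17 differed by -0.40 ± 0.15 and -0.37 ± 0.15. Among 9 genes with other main roles 6 were called lower, with prp-19 of the spliceosome (-0.60 ± 0.15), the TOR kinase gene let-363 (-0.47 ± 0.15) and the nonsense-mediated decay kinase gene smg-1 (-0.41 ± 0.15) among them, as well as F23F1.5 (-0.62 ± 0.16), F58B3.7 (-0.53 ± 0.23) and C08H9.3 (-0.49 ± 0.17). None of these 6 was called by the centred test. The tankyrase-like gene tank-1 had 18.2 FPKM in pycr-1(wrm22) and 18.3 FPKM in wild type (-0.01 ± 0.15, with an adjusted p of 0.942 by the authors' deposited table). The genes baf-1, for a DNA-binding protein of the nuclear envelope, and rps-3 differed by -0.22 ± 0.15 and -0.21 ± 0.16 and were not called. Relative to the median of entries at 5 FPKM or more, tank-1, ubc-1, baf-1, rps-3, mnat-1, Y51H7C.5, chk-2 and C23H4.6 lay above it in total RNA, by 0.34, 0.33, 0.13, 0.14, 0.08, 0.03, 0.01 and 0.01.

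**Figure D3:**
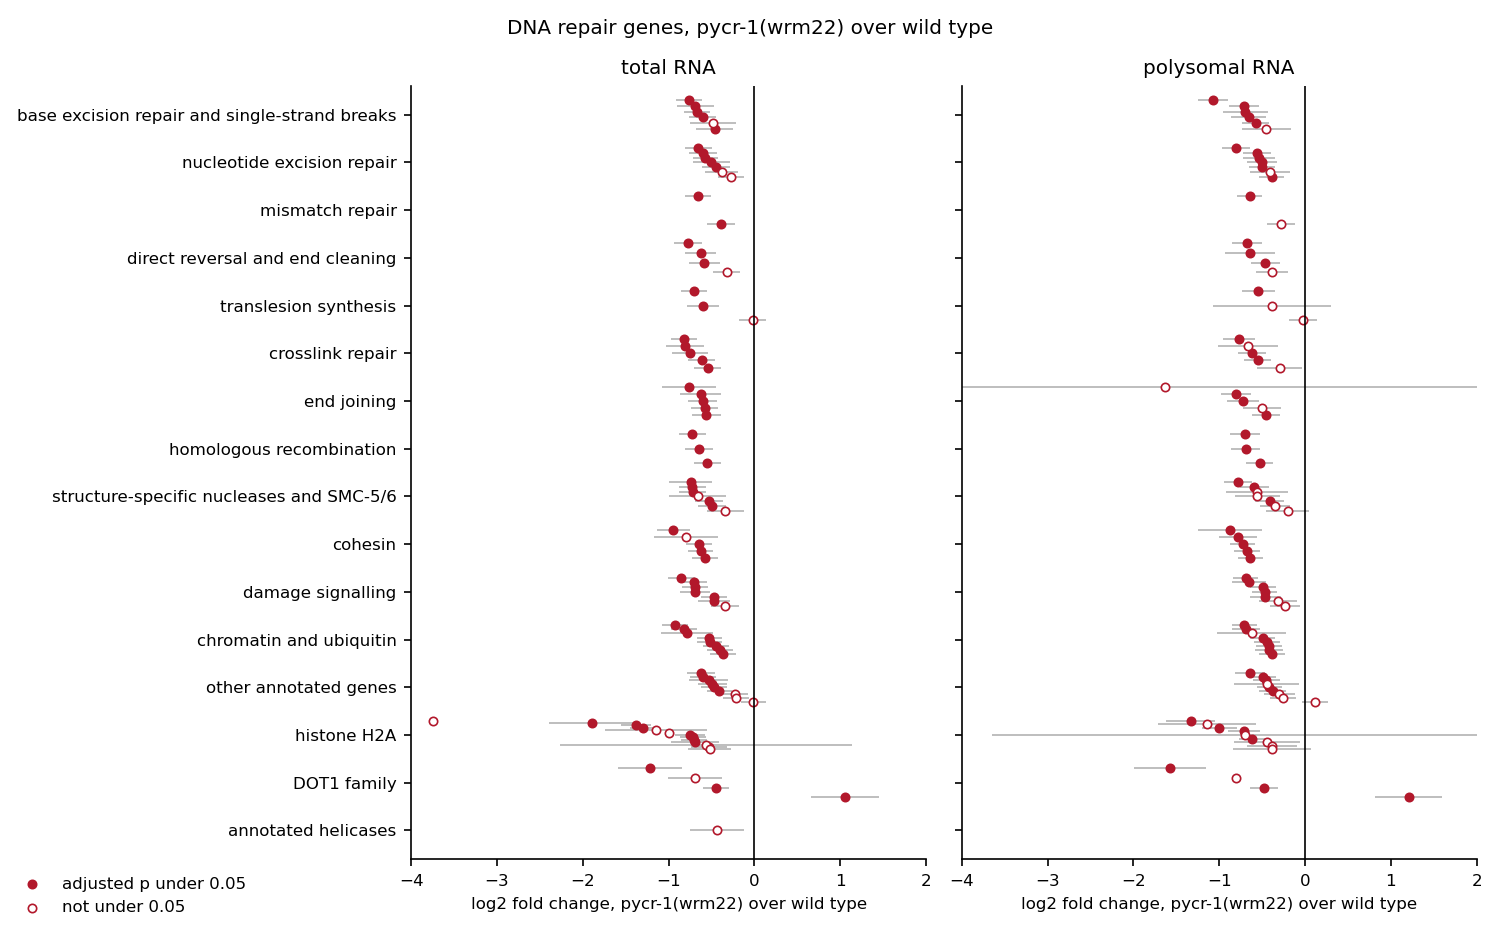
Log2 ratio of pycr-1(wrm22) over wild type for each tested DNA repair gene by role, in total RNA and in polysomal RNA; bars are standard errors, and filled points pass in the authors' deposited table with an adjusted p under 0.05. In total RNA 69 genes are called lower and 1, dot-1.3 of the DOT1 family, is called higher; error bars beyond the axis are cut and points without a bar have no error estimate.

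The H2A genes encode nearly identical core histones, so reads can be split between copies and single values are uncertain. Of 16 genes 13 were tested in total RNA and 8 were called lower, against 27.9% of all entries tested. The median of the 13 was -0.75. The gene his-3 (chromosome V, 16040771 to 16041288) had 114.9 FPKM in pycr-1(wrm22) total RNA, against 282 FPKM in wild-type total RNA (-1.295 ± 0.16). The gene his-7 (chromosome V, 8533379 to 8533869) had 35.7 FPKM in pycr-1(wrm22), against 93.0 FPKM in wild type (-1.38 ± 0.18). These were the largest called differences among members with a mean of 1 FPKM or more. The best expressed copy, his-61, differed by -0.71 ± 0.15, his-68 by -0.70 ± 0.15 and his-47 by -0.75 ± 0.18. Thus the falls of his-3 and his-7 were larger than those of his-61, his-68 and his-47, although that difference between genes was not tested. Of the weaker copies his-21 (-1.90 ± 0.49), his-16 (-0.69 ± 0.28) and his-65 (-0.53 ± 0.21) were called lower, and his-19, his-30, his-33, his-43 and his-57 were not. These weaker copies had at most 18.6 FPKM in wild-type total RNA.

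DOT1 methylates histone H3 at a lysine in the globular part. The dot-1.1 gene had 18.5 FPKM in pycr-1(wrm22) total RNA, against 25.3 FPKM in wild-type total RNA, and was called lower (-0.45 ± 0.15). The other 5 members of the family lie on the X chromosome, at 1.16 FPKM or less in wild-type total RNA. Of these dot-1.3 (chromosome X, 12301488 to 12302817) was the 1 member called higher, with 0.816 FPKM in pycr-1(wrm22), against 0.394 FPKM in wild type (1.05 ± 0.40, with an adjusted p of 0.0226 by the authors' deposited table). Its neighbour in name dot-1.4 was called lower, with 0.371 FPKM in pycr-1(wrm22), against 0.864 FPKM in wild type (-1.22 ± 0.37). The X-linked members thus went both ways at levels under 1 FPKM. The dot-1.5 gene was not called (-0.69 ± 0.31). Of the helicase-like genes F11C3.1 alone was tested, at 0.618 FPKM in pycr-1(wrm22) and 0.837 FPKM in wild type (-0.44 ± 0.32), and was not called.

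Other genes of the same repair routes were lower as well. A list of repair genes by role, written with earlier results of these data known, held 64 genes that are not members, 11 of them left out for a replication or meiosis term. Of 63 tested in total RNA 53 were called lower and none higher, with a median of -0.63. The proliferating cell nuclear antigen gene pcn-1 had 123 FPKM in pycr-1(wrm22), against 215 FPKM in wild type (-0.81 ± 0.15). The transcription-coupled repair gene csb-1 had 3.44 FPKM in pycr-1(wrm22), against 7.38 FPKM in wild type (-1.101 ± 0.18). It was the 1 listed gene outside the members with a called log2 ratio beyond 1 in total RNA. The damage recognition gene xpa-1 had 39.2 FPKM in pycr-1(wrm22), against 56.5 FPKM in wild type (-0.53 ± 0.16). Among the 28 repair genes left out by the rule 27 were called lower, with a median of -0.71. Of the genes annotated with DNA replication 57 of 58 tested were called lower (median -0.75), and of those annotated with meiotic cell cycle 74 of 86 (median -0.64). These sets overlap in part with one another, and the difference between them and the members was not tested.

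The second comparison set the strains against each other in polysomal RNA. Of 84 members tested 56 were called lower and 1 higher, with a median of -0.55. Over all 14696 entries 23.9% were called lower and 14.8% higher. At 5 FPKM or more in both strains 52 of 69 members were called lower, against 34.3% of entries, whose median was -0.26. The centred test called 20 of 83 members lower and 2 higher, against 7.75% lower and 23.4% higher of all 14414 entries. The centred test called 10 members lower in both fractions, namely his-3, his-7, his-68, dot-1.4, snfc-5, dvc-1, trr-1, brd-1, H21P03.2 and hsr-9. It called exo-3, apn-1, xpg-1, msh-6, cku-70, cku-80, brc-1, smc-3, him-1 and evl-14 lower in polysomal RNA alone. Over both fractions 51 members were called lower in each, 18 in total RNA alone and 5 in polysomal RNA alone. The shares of all entries for these overlaps, and for the 10 centred calls in both fractions, were not worked out. The counts therefore describe the members only. Germline and oocyte markers summed to 1913 FPKM in pycr-1(wrm22) polysomal RNA and 4003 FPKM in wild-type polysomal RNA, with 12 of 16 called lower, and sperm markers to 1454 FPKM in pycr-1(wrm22) and 1302 FPKM in wild type, with 5 of 8 called higher. Epidermis markers summed to 93.7 FPKM in pycr-1(wrm22) and 50.9 FPKM in wild type, with 4 of 6 called higher and a median log2 ratio of 1.69. Of the intestine, body muscle and neuron markers none was called higher and 1, a neuron marker, was called lower. The part of these markers in the polysomal result was likewise not tested.

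In the polysomal fraction exo-3 had the largest called fall among the members that encode repair enzymes, to 18.1 FPKM in pycr-1(wrm22), against 37.9 FPKM in wild type (-1.07 ± 0.17). Its partner in role apn-1 differed by -0.71 ± 0.17, nth-1 by -0.69 ± 0.26 and parp-1 by -0.66 ± 0.21. Nuclease and Ku genes followed. The gene xpg-1 had 11.04 FPKM in pycr-1(wrm22), against 19.3 FPKM in wild type (-0.80 ± 0.16). The gene cku-80 had 9.73 FPKM in pycr-1(wrm22), against 17.01 FPKM in wild type (-0.81 ± 0.18), and cku-70 had 16.5 FPKM, against 27.3 FPKM (-0.72 ± 0.18). All 5 genes grouped with cohesin were called lower in polysomal RNA. The helicase gene chl-1 differed by -0.87 ± 0.37, C44C10.4 by -0.78 ± 0.22, smc-3 by -0.73 ± 0.15, evl-14 by -0.68 ± 0.15 and him-1 by -0.64 ± 0.15. All 3 tested recombination genes were called lower as well, with brc-1 at -0.70 ± 0.17, brd-1 at -0.69 ± 0.17 and rad-51 at -0.53 ± 0.16.

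Some of the remaining members were called in polysomal RNA and others were not. The gene dvc-1 had 10.1 FPKM in pycr-1(wrm22), against 17.1 FPKM in wild type (-0.77 ± 0.18), H21P03.2 differed by -0.78 ± 0.16 and trr-1 by -0.71 ± 0.15. The histone genes his-7, his-3 and his-68 differed by -1.33 ± 0.28, -0.996 ± 0.21 and -0.71 ± 0.18. The genes ung-1, ekl-4, fan-1, F35H10.5, lem-3, mus-81, slx-1, lig-4, exo-1, ercc-1, agt-1, rev-1, hpr-9, chk-2, ubc-1, C23H4.6, F23F1.5, F58B3.7, baf-1 and tank-1 were tested and not called in this fraction, and neither were Y73B6BL.14, dot-1.2 and 5 H2A genes. Some of these had been called lower in total RNA. F35H10.5 differed by -0.29 in polysomal RNA and -0.75 in total RNA, and lem-3 by -0.35 and -0.72 in those fractions, and the difference between fractions did not pass for either in the Wald test. Of the uncalled genes tank-1 had 18.7 FPKM in pycr-1(wrm22) and 17.2 FPKM in wild type (0.12 ± 0.15) and was the second gene that the centred test called higher. In polysomal RNA dot-1.3 was again called higher, with 1.21 FPKM in pycr-1(wrm22), against 0.525 FPKM in wild type (1.21 ± 0.39), and dot-1.4 lower (-1.57 ± 0.42). Listed repair genes that are not members had 51 of 63 called lower and none higher, with pcn-1 at -1.199 and csb-1 at -1.19 below -1.

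The comparison of polysomal with total RNA asked how well each mRNA was loaded with ribosomes, as a level relative to all other mRNAs of each fraction. It shares its total RNA and polysomal groups with the strain comparisons, so the results are not independent of one another. The repair mRNAs were poor in the polysomal fraction in both strains. In pycr-1(wrm22) 59 of 87 members were called lower in polysomal RNA and 4 higher, with a median of -0.72. In wild type 60 of 90 were called lower and 5 higher, with a median of -0.82. Over all entries 27% were called lower and 23.9% higher in pycr-1(wrm22), and 26.9% lower and 24.7% higher in wild type. At 5 FPKM or more in both fractions 47 of 69 members were called lower in pycr-1(wrm22), against 28.5% of entries, and 48 of 72 members in wild type, against 32.6% of entries. Without the H2A genes the medians were -0.66 in pycr-1(wrm22) and -0.66 in wild type. The members were not alone in this. DNA replication genes had 47 of 58 called lower and 2 higher in pycr-1(wrm22) (median -0.84), and 46 and 2 in wild type (-0.74). Meiotic cell cycle genes had 53 of 87 lower and 5 higher (-0.57), and 52 of 86 and 5 (-0.64). The 28 repair genes left out by the rule had 22 lower and 2 higher in each strain (-0.80 and -0.77). Germline and oocyte markers had 12 of 16 lower and 2 higher in each. Differences between these sets were not tested.

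**Figure D4:**
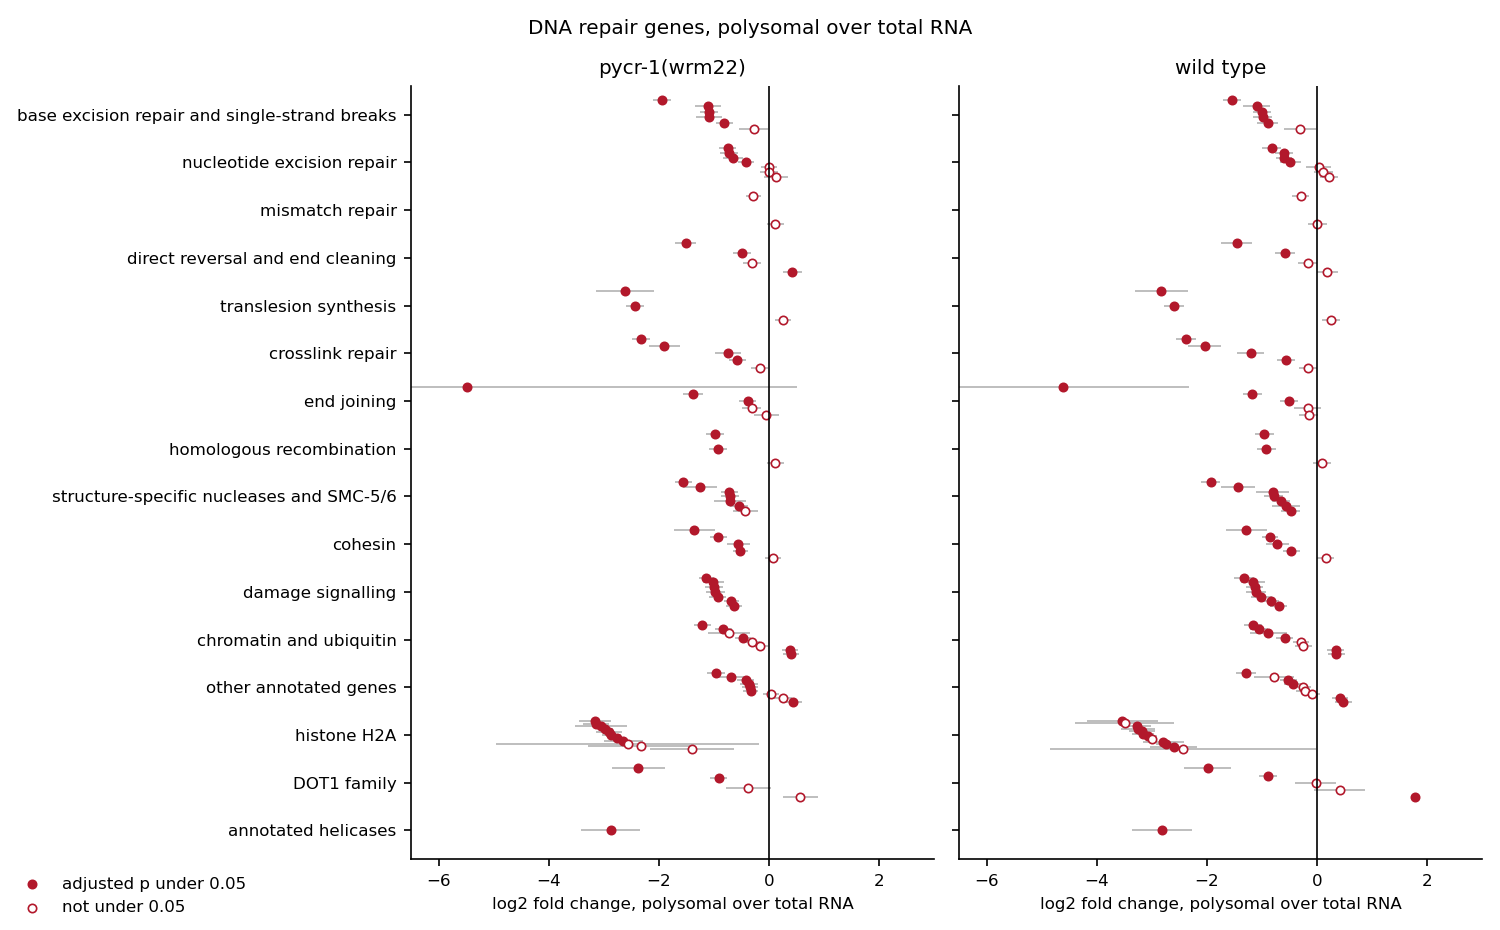
Log2 ratio of polysomal over total RNA for each tested DNA repair gene by role, in pycr-1(wrm22) and in wild type; bars are standard errors, and filled points pass in the authors' deposited table with an adjusted p under 0.05. Most histone H2A genes lie near -3, with his-21 at -1.39 in pycr-1(wrm22), all 7 damage signalling genes are called lower in both strains, and ruvb-1, ruvb-2 and baf-1 are called higher in both; his-33, listed at 0 in wild-type polysomal RNA, has no point there.

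The H2A mRNAs stood lowest, with medians of -2.86 in pycr-1(wrm22) and -3.11 in wild type. His-61 had 150 FPKM in polysomal and 1172 FPKM in total RNA of pycr-1(wrm22) (-2.97 ± 0.14), and 229 FPKM in polysomal and 1922 FPKM in total RNA of wild type (-3.07 ± 0.16). The copies his-3, his-7, his-16, his-47, his-65 and his-68 lay between -3.16 and -2.76 in pycr-1(wrm22) and between -3.27 and -2.60 in wild type. The gene his-33 was listed at 0 in wild-type polysomal RNA and was counted as lower there with no fold. Histone mRNAs made in S phase end in a stem-loop in place of a poly(A) tail in animals, and how RNA was selected for these libraries was not given in the sources used here.

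Some bypass polymerase and crosslink genes were also much lower in polysomal RNA. The gene polh-1 (chromosome III, 1945058 to 1950270) had 5.16 FPKM in polysomal and 27.9 FPKM in total RNA of pycr-1(wrm22) (-2.44 ± 0.17), and 7.52 and 45.4 FPKM in those fractions of wild type (-2.60 ± 0.18). The gene rev-1 had 2.196 and 13.5 FPKM in pycr-1(wrm22) (-2.62 ± 0.53), and 2.87 and 20.4 FPKM in wild type (-2.83 ± 0.48). Both mRNAs thus had several times lower levels in polysomal than in total RNA of either strain, whereas ubc-1 of the same route had 26.8 FPKM in polysomal and 22.4 FPKM in total RNA of pycr-1(wrm22). The protease gene dvc-1 differed by -2.32 ± 0.16 in pycr-1(wrm22) and -2.38 ± 0.18 in wild type, and fan-1 by -1.90 ± 0.29 and -2.04 ± 0.30. In the same class fcd-2 was not called in either strain (-0.17 ± 0.16 and -0.16 ± 0.16). Crosslink repair mRNAs therefore ranged over more than 2 log2 units.

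Partners in one complex did not always stand together. The cku-80 mRNA differed by -1.38 ± 0.18 in pycr-1(wrm22) and -1.18 ± 0.17 in wild type, whereas cku-70 differed by -0.31 ± 0.17 and -0.15 ± 0.18 and was not called. Within the cohesin ring him-1 differed by -0.92 ± 0.15 in pycr-1(wrm22) and -0.85 ± 0.15 in wild type, and smc-3 by 0.08 ± 0.15 and 0.16 ± 0.15. The pair brc-1 and brd-1 stood close, at -0.98 ± 0.16 and -0.92 ± 0.16 in pycr-1(wrm22) and at -0.92 ± 0.17 and -0.95 ± 0.17 in wild type. In recombination rad-51 was not called, at 0.12 ± 0.15 in pycr-1(wrm22) and 0.09 ± 0.16 in wild type. Differences between genes of a pair were not tested.

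The 7 damage signalling mRNAs were called lower in polysomal RNA of both strains, between -1.13 and -0.64 in pycr-1(wrm22) and between -1.32 and -0.69 in wild type. For atl-1 the values were 15.1 FPKM in polysomal and 33.2 FPKM in total RNA of pycr-1(wrm22) (-1.13 ± 0.14), and 20.96 and 45.97 FPKM in those fractions of wild type (-1.13 ± 0.15). In base excision repair exo-3 differed by -1.94 ± 0.16 in pycr-1(wrm22) and -1.55 ± 0.17 in wild type, and 5 of 6 entries were called lower in each strain. Among nucleases lem-3 differed by -1.55 ± 0.15 in pycr-1(wrm22) and -1.93 ± 0.17 in wild type, and mus-81 by -1.25 ± 0.31 and -1.43 ± 0.31. In nucleotide excision repair 4 of 7 were called lower in each strain, and neither mismatch repair entry was called. The lowest entry of all, Y73B6BL.14 with Y73B6BL.288, had 0.181 FPKM in polysomal and 8.11 FPKM in total RNA of pycr-1(wrm22), and 0.560 and 13.8 FPKM in those fractions of wild type. Its log2 ratios, called lower in the authors' deposited table, carry standard errors of 6.01 and 2.30 and rest on an entry of several gene names. At low levels dot-1.5 (-2.38 ± 0.48 in pycr-1(wrm22) and -1.99 ± 0.43 in wild type) and the helicase-like gene F11C3.1 (-2.88 ± 0.54 and -2.81 ± 0.55) were called lower too.

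A few mRNAs were called higher in polysomal than in total RNA. The baf-1 gene (chromosome III, 9467464 to 9468058) had 222 FPKM in polysomal and 162 FPKM in total RNA of pycr-1(wrm22) (0.45 ± 0.15), and 265 and 190 FPKM in those fractions of wild type (0.48 ± 0.16). The ATPase genes ruvb-1 and ruvb-2 were called higher in both strains, by 0.38 ± 0.14 and 0.41 ± 0.15 in pycr-1(wrm22) and by 0.35 ± 0.15 and 0.34 ± 0.15 in wild type. These 3 genes were the ones called higher in both. Their ratios lay below the upper quartile of all entries at 5 FPKM or more, 0.54 in pycr-1(wrm22) and 0.62 in wild type. Of those entries 32.6% were called higher in pycr-1(wrm22) and 32.8% in wild type. The agt-1 mRNA was called higher in pycr-1(wrm22) (0.43 ± 0.18) and not in wild type (0.18 ± 0.19). In wild type rps-3 (0.42 ± 0.15) and dot-1.2, at 0.359 FPKM in polysomal and 0.104 FPKM in total RNA, were called higher. After centring on entries at 5 FPKM or more, 64 of 87 members in pycr-1(wrm22) were called lower and 1 higher, against 31.4% lower and 19.2% higher of all 14856 entries. In wild type 61 of 87 were called lower and 2 higher, against 29.4% lower and 24.2% higher of all 14768 entries.

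Coding length was set beside polysomal loading as a description with no test. Among 79 members the Spearman rho between coding length and the log2 ratio of polysomal over total RNA was 0.30 in pycr-1(wrm22) and 0.31 in wild type. Without the H2A genes, which are short and low on polysomes, it was -0.03 in pycr-1(wrm22) and -0.02 in wild type over 68 members. This describes genes that share the same libraries. The 31 members with 1620 coding bases or more had medians of -0.64 in pycr-1(wrm22) and -0.60 in wild type. Over 13693 coding entries tested in both strains rho was -0.16 in pycr-1(wrm22) and -0.18 in wild type. The median of those entries in pycr-1(wrm22) was -0.11 at 1620 coding bases or more and 0.24 at under 624, and in wild type it was -0.15 and 0.37. Short mRNAs stood at both ends. The baf-1 coding sequence has 267 bases without its stop codon and its mRNA was higher on polysomes, while the H2A genes have 381 bases, save his-57 with 441, and those tested in both strains stood between -3.16 and -1.39 in pycr-1(wrm22) and between -3.53 and -2.44 in wild type.

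Finally, the polysomal over total ratio was compared between the strains. No member differed. Of 83 members tested with a Wald test on the differences of log2 ratios none passed, adjusted by Benjamini-Hochberg over 14037 entries, and none had an unadjusted p under 0.05. Over all entries 10 were called higher in pycr-1(wrm22), which is 0.0712%, and 11 lower, which is 0.0784%, and 552 had an unadjusted p under 0.05. With the variances as they stand no member passed either and none had an unadjusted p under 0.05. The member median was 0.03, with a median standard error of 0.23 per gene. The smallest p among members, 0.085, belonged to exo-3, with a difference of -0.40 ± 0.23. A p that misses the threshold does not show that the ratios were equal. With a standard error of 0.23, a difference of the size seen for exo-3 was not called for a single gene.

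**Figure D5:**
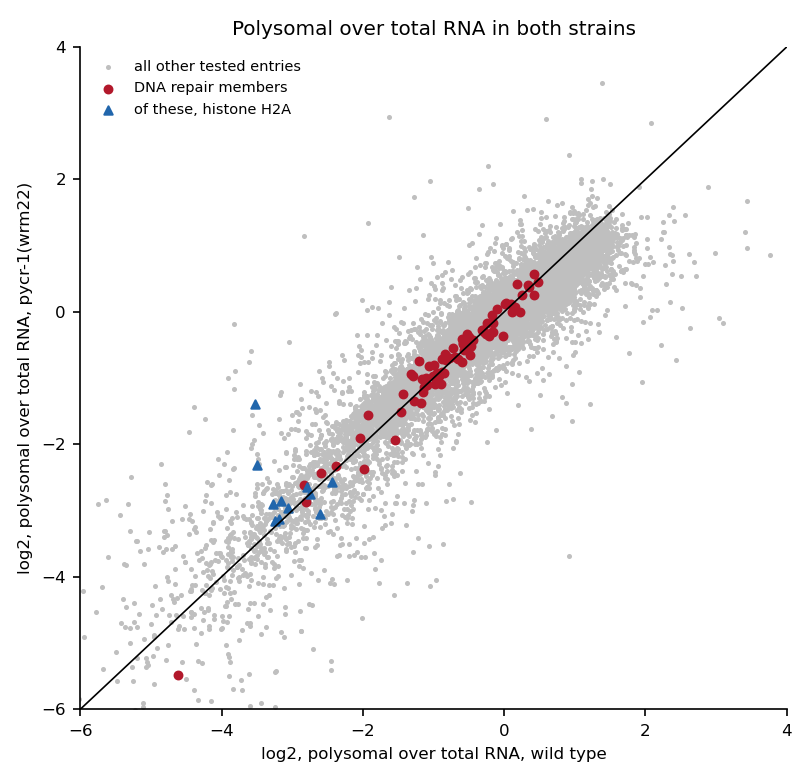
Log2 ratio of polysomal over total RNA in pycr-1(wrm22) (vertical axis) against wild type (horizontal axis); red points are DNA repair members, blue triangles the H2A genes among them, grey points all other entries tested in both strains, and the line marks equal ratios. Most members lie near the line, from near -3 for most H2A genes to 0.45 and 0.48 for baf-1; of those drawn, his-19, his-21 and the shared entry of Y73B6BL.14 lie farthest from it, and none of the 83 members with a test of that difference is called; points beyond the axes are not drawn.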

How the data were processed

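RNA was sequenced from total lysate and polysomal fractions of both strains, in 14 libraries grouped by their sample titles. The submitters' processing notes name genome build WBcel235, Cuffdiff 2.2.1, StringTie 1.3.4d, HISAT2 2.1.0 and FastQC 0.11.7. Neither strandedness nor the handling of multi-mapping reads was given in the sources used here. The deposited table holds 1 pooled FPKM per gene and group. For each pair of groups it also holds the authors' log2 fold change, test score, p-value and q-value. Benjamini-Hochberg adjustment over the 91924 tests of all 6 pairs gave back the deposited q-values. The 2 pairs that differ in both strain and fraction were left out. Depth was unknown.

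The members and lists were chosen with earlier results of these data known, and the role classes beyond the list after values were seen. A call is a deposited q-value under 0.05, fitted over the whole table. Each group's variance was solved from the test statistics, which added up across comparisons (ratio 0.999994 to 1.00001 over 13934 entries), and divided by its number of libraries. For tests in total RNA with a deposited p-value between 0.001 and 0.01, the median p was 0.00315 in the authors' table, 0.00203 from divided and 0.0996 from undivided variances. The strain difference in polysomal over total RNA was tested with a Wald test on these variances, which treats libraries as independent. Centring subtracted the median of entries at 5 FPKM or more in both groups.

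Entries of the table are a gene name and locus; 8 members share theirs with other names, and those values are uncertain. The table counts start positions from 0, so 1 was added to each. Of 104 members 99 matched the Ensembl release 115 annotation, 12 with another coding gene in the entry on the same strand and 20 on the opposite strand, and 98 had a coding length (longest annotated, stop codon left out). Genes were named by rule: up to 15 largest called differences per strain comparison at a mean of 1 FPKM or more, listed repair genes at that level, the 5 highest and 5 lowest polysomal over total ratios per strain, and pycr-1. Python 3.11.15, numpy 2.4.6, pandas 2.3.3 and scipy 1.17.1 were used.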

Additional observations from a re-analysis of the deposited data

How the results depend on the processing

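Centring on entries at 5 FPKM or more changed the strain comparisons most, because better expressed genes were lower in pycr-1(wrm22). Members called lower numbered 17 in total RNA and 20 in polysomal RNA under the centred Wald test, against 69 and 56, and the medians moved to -0.25 and -0.29. Of single members with a mean of 1 FPKM or more, those above the centre were not called before. They were tank-1 (0.34), ubc-1 (0.33), rps-3 (0.14), baf-1 (0.13), mnat-1 (0.0754), Y51H7C.5 (0.0268), C23H4.6 (0.00936) and chk-2 (0.00888) in total RNA, and tank-1 (0.38), ubc-1 (0.24), C23H4.6 (0.0521), chk-2 (0.0213) and baf-1 (0.00045) in polysomal RNA. Counts of members called higher were small and moved easily. In total RNA the 1 called member was 0 at an adjusted p under 0.01 and at a mean of at least 1 or 5 FPKM. In polysomal RNA the count was 0 at those FPKM filters, 1 at an adjusted p under 0.01 and 2 when centred. In polysomal over total RNA the 4 called higher in pycr-1(wrm22) were 1 at an adjusted p under 0.01 and 1 when centred, and the 5 in wild type were 1 and 2. The cause was not tested. The other counts stayed within 1.5 times under adjustment within a comparison, a Wald test without centring, entries of 1 gene name, the level filters and all DNA repair genes. The other medians moved by less than the median standard error, pseudocounts of 0.1 and 1 included. No paired analysis was possible because the table holds 1 pooled value per group. For the same reason leaving out each replicate was not run.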
